A study of Mus musculus with 16 samples.

Results

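The genes described here are the translation initiation and elongation factors of the mouse, the proteins that load the ribosome onto an mRNA, find the start codon and move the growing chain forward. Members were chosen by symbol: every row of the count table whose Ensembl identifier belongs, in the GENCODE mouse annotation M21, to a protein-coding gene with a symbol that begins with Eif and a digit from 1 to 6, or with Eef1 or Eef2, leaving out the eIF2 alpha kinases (Eif2ak). This gave 63 of the 35328 genes in the table. The symbols of 8 processed pseudogenes and 1 lincRNA in the table met the same pattern and were left out because they are not protein coding, and Eef1akmt4 was not analysed here.

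Initiation begins when eIF2 carries the initiator tRNA to the small ribosomal subunit, while eIF4E binds the cap of the mRNA and eIF4G joins it to the helicase eIF4A and to eIF3, which sits on the small subunit. The 4E-binding proteins hold eIF4E away from eIF4G until the kinase mTORC1 phosphorylates them, and the kinases that act on the alpha subunit of eIF2 slow delivery of the tRNA by blocking its exchange factor eIF2B. eEF1A then brings each aminoacyl-tRNA to the elongating ribosome and eEF2 moves the ribosome by a codon. In the hippocampus these control points are known for their part in long-lasting synaptic plasticity and memory, which need new protein.

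The samples were dorsal hippocampi of 16 male C57Bl6/J mice, 1 mouse per library and 4 per group, sequenced as mRNA. In each condition, 1 group drank water and 1 drank water with caffeine at 0.3 g/L for 2 weeks, from an age of 8 to 9 weeks. The home cage groups (HC_water and HC_Caffeine) were at rest, and the learning groups (MWM_water and MWM_Caffeine) were killed 1 hour after the last of 3 days in which they trained in a Morris water maze, where mice learn the place of a hidden platform. Handling, swimming and exercise went with the training in the learning groups, so that learning and these exposures cannot be told apart. Each mouse is named below by its group and the number in its label.

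The libraries held 23078094 to 49949281 counted reads, and the 63 factors together took 0.76% to 0.81% of them. All p-values come from 1 edgeR quasi-likelihood model with a mean for each group over the 16 libraries, adjusted by the Benjamini-Hochberg method over the 17830 genes that passed the count filter, and a gene was called at an adjusted p under 0.1. Levels are in CPM, read counts scaled to the TMM-adjusted library total, and differences are on the log2 scale. The activity gene Fos lay between 1.59 and 6.42 CPM in the home cage mice and between 11.6 and 18.2 CPM in the learning mice, and the hippocampal markers Prox1 (dentate gyrus) and Wfs1 (CA1) were at 85.9 CPM or more and 101 CPM or more in every library. The summed level of 9 choroid plexus markers ran from 310 to 2374 CPM in the HC_water mice and from 116 to 504 CPM in the other groups, and that of 6 oligodendrocyte markers reached 11735 CPM in MWM_water 24 against at most 8805 CPM in the others. The part of these cell type differences in the results below was not tested. In these libraries of whole tissue, fewer cells of a type and less RNA per cell cannot be told apart.

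Of the 63 factors, 60 passed the count filter. Eif4e1b, an eIF4E paralog known from oocytes, had 0 to 3 reads per mouse. Eef1akmt3, a methyltransferase of eEF1A, had 1 to 9 reads, and Eif3j2, a near copy of Eif3j1, had 2 to 11. These 3 were not tested. Reads that fit several places had been dropped by the authors, so members with near-identical copies lost part of their reads. In the transcripts of 14 members at least 10% of the 50-base windows, the length of a read, occurred also in transcripts of other genes, led by Eif3j2 with 91.8% (most of it in Eif3j1), Eif4ebp3 with 65.5%, Eef1g with 44.2%, Eef1a1 with 39.4%, Eif3j1 with 36.9%, Eif2s3x with 34.6% and Eif4a1 with 28.4%. Exons of 25 members also overlapped those of another gene, with the largest shares in Eif4ebp3 (67.3% of its length, AC115631.1), Eif3d (43.3%, antisense Gm17638), Eif3j1 (19.0%, Spg11), Eef2kmt (17.6%, Alg1), Eif5b (16.8%, Rev1), Eif1ad (15.3%, Banf1), Eif4e3 (14.8%, Gm20696) and Eif1b (12.7%, antisense D830035M03Rik). The levels of all these members are uncertain to that extent.

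**Figure D1:**
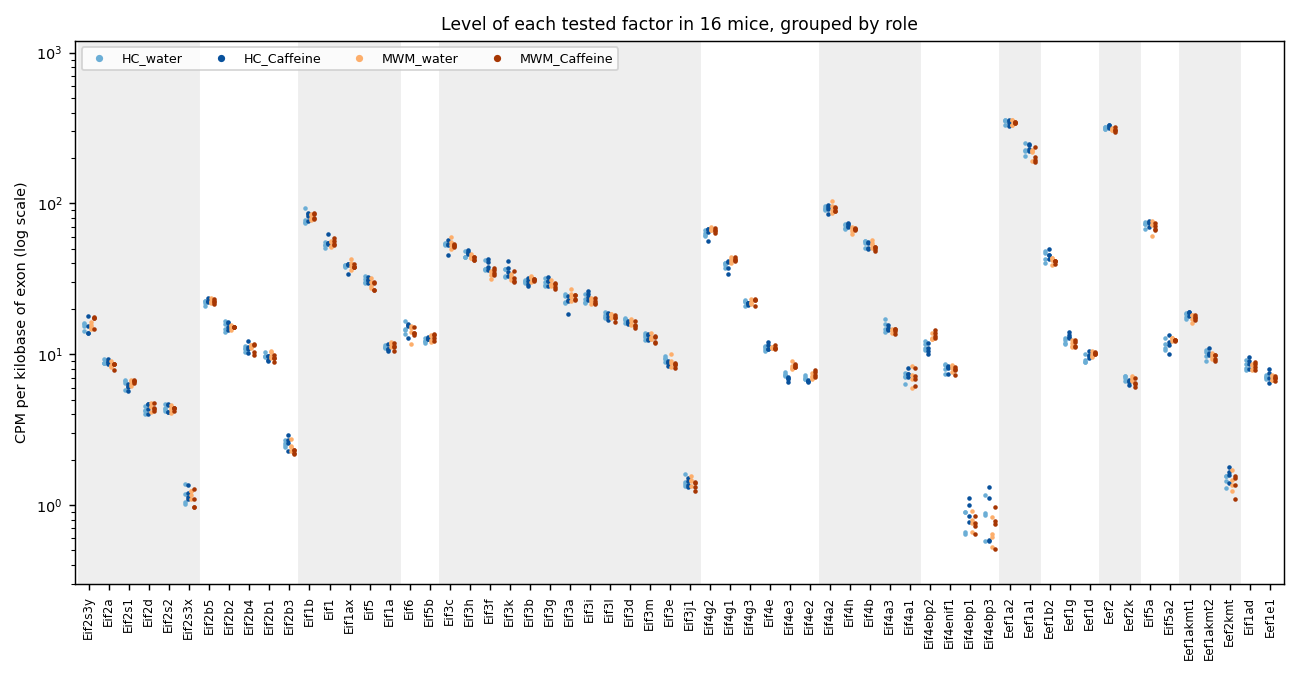
Level of the 60 tested factors in CPM per kilobase of exon (log axis), with 1 point per mouse colored by group, and shading that marks the roles in the order eIF2, eIF2B, start codon selection, subunit joining, eIF3, cap binding with eIF4G, eIF4A with cofactors, 4E-binding repressors, eEF1A, eEF1B, eEF2 with its kinase, eIF5A, methyltransferases and other members. Eef1a2, Eef2 and Eef1a1 stand above 180 CPM per kilobase in every mouse, while Eif4ebp1 and Eif4ebp3 lie near 0.8, and the 4 colors overlap for nearly every gene.

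The factors spanned a wide range of levels. The exonic length used here joins all annotated exons of a gene and can exceed the length of a single mRNA. The order of genes per kilobase depends on this length. Per kilobase of exon, Eef1a2, the eEF1A isoform of mature neurons and muscle, was highest with 346 ± 10.9 CPM (SD over the 16 mice), followed by Eef2 with 315 ± 9.36 CPM and Eef1a1, the isoform found in most other cells, with 221 ± 19.6 CPM. These 3 elongation factors held 40.6% of the summed level per kilobase of all members and ranked 39, 47 and 89 among the 17802 tested genes with a known length. The range of Eef1a2 (326 to 360 CPM per kilobase) overlapped that of Eef2 (298 to 332) and lay above that of Eef1a1 (188 to 250), although the value of Eef1a1 is a low estimate given its shared windows.

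Among members with an Eif symbol the most abundant per kilobase was the helicase Eif4a2 with 92.7 ± 4.60 CPM, followed by the start codon factor Eif1b with 81.6 ± 4.99 CPM, the elongation and termination factor Eif5a with 71.6 ± 4.22 CPM and the eIF4A cofactor Eif4h with 69.1 ± 3.08 CPM. The least abundant of those tested were the 4E-binding proteins Eif4ebp3 (0.79 ± 0.24 CPM) and Eif4ebp1 (0.81 ± 0.13 CPM) and the X-linked eIF2 gamma gene Eif2s3x (1.15 ± 0.13 CPM). The values of Eif4ebp3 and Eif2s3x are low estimates given their shared windows. Neighbours in this order often did not differ beyond their spread: Eif5a and Eif4h, like Eif4ebp1 and Eif4ebp3, had overlapping ranges.

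Subunits that work in 1 complex differed in mRNA level. Within eIF3, whose subunits form a scaffold on the small ribosomal subunit, the 13 tested genes ran from 1.41 ± 0.10 CPM per kilobase for Eif3j1, a loosely bound subunit with many shared windows, to 53.4 ± 3.14 for Eif3c, with a median of 23.5. Within eIF2B, the exchange factor of eIF2, the gamma subunit Eif2b3 was lowest at 2.47 ± 0.21 and the catalytic subunit Eif2b5 highest at 22.4 ± 0.71. In the eIF2 group the highest was Eif2s3y, the Y-linked gamma subunit, at 15.7 ± 1.34. Within the eEF1B exchange factor, which reloads eEF1A with GTP, Eef1b2 was highest at 43.4 ± 3.07 and Eef1d lowest at 9.81 ± 0.51. The joined exons of Eef1d span 6488 bases and those of Eef1g 2600. Without division by length, Eef1d had 59.8 ± 3.34 CPM in the HC_water mice and Eef1g 31.6 ± 1.47 CPM. The 6 tested genes of the cap-binding group ran from Eif4e2, a cap-binding repressor, at 7.06 ± 0.37 to Eif4g2, an eIF4G relative that lacks the site for eIF4E, at 65.4 ± 3.40, with the main cap-binding protein Eif4e at 11.1 ± 0.34. Of the 3 tested enzymes that methylate elongation factors, Eef2kmt was lowest at 1.47 ± 0.18 and Eef1akmt1 highest at 17.9 ± 0.83.

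The levels were steady between mice of 1 group. The pooled coefficient of variation within groups had a median of 5.23% over the 60 tested factors, from 2.17% for Eef2 to 31.3% for Eif4ebp3, which had only 10 to 35 reads per mouse. The median standard error of a factor's log2 difference under caffeine was 0.06.

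Under water, training was followed by small differences in the factors, and none passed the test. With edgeR 0 of 60 were called, beside 0.97% of all genes tested. At an unadjusted p under 0.05 there were 4 factors, Eif4ebp2, Eif4e3, Eef1d and Eif3f, beside 11.8% of all genes, and DESeq2 called 1, Eif4e3. The groups did not overlap for 5 factors (Eif4ebp2, Eif4e3, Eif4g1 and Eif4g2 higher, Eif3f lower), beside 6.99% of all genes, which is a share near the background and no result about the factors. The log2 difference was negative in 31 of 60 factors (51.7%), beside 51.5% of all genes, and its median was -0.01 in both.

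Under caffeine, 4 of 60 factors were called in learning mice, beside 5.28% of all genes. This is 6.67%, near the background, and the count is no result about the factors as a class. By direction 3 were higher, beside 3.16% of all genes, and 1 was lower, beside 2.13%. Those higher were Eif4ebp2 and the eIF4E paralogs Eif4e3 and Eif4e2. Eif4ebp2 is a 4E-binding protein that represses cap-dependent translation and is the main one of its family in the brain. The 1 lower was Eef1g, a subunit of the eEF1B exchange factor. When each library's trend with exonic length and GC content was removed, 5 of 60 factors were called. Of these 2 were higher (Eif4ebp2 and Eif4e3) and 3 lower (Eif5, Eif2b3 and Eif2a), while Eif4e2 and Eef1g were not called. Of all 17830 genes, 590 were called higher and 323 lower in that fit. At an unadjusted p under 0.05 there were 14 factors, beside 18.8% of all genes. The groups did not overlap for 8 factors (Eif2s1, Eif4e2, Eif4e3 and Eif4ebp2 higher, Eef1b2, Eef1g, Eif3h and Eif4h lower), beside 10.9% of all genes. More factors had a negative than a positive log2 difference, 42 of 60 (70.0%) beside 52.9% of all genes, with medians of -0.05 and -0.01. With the length and GC trend removed, 39 of 60 (65%) were negative, beside 50.5% of all genes.

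The average of both learning responses uses all 16 mice and called 9 of 60 factors, or 15%, beside 14.5% of all genes, again a share near the background. Of these 4 were higher, beside 7.81% of all genes, and 5 lower, beside 6.71%, and 15 had an unadjusted p under 0.05, beside 25.5%. A negative log2 difference was found in 39 of 60 (65.0%), beside 54% of all genes. With the length and GC trend removed, 37 of 60 (61.7%) were negative, beside 51.9% of all genes. Higher after learning were Eif4ebp2, Eif4e3, Eif4e2 and Eif4g1, all of which bind eIF4E, bind the cap or join cap and ribosome. Lower were the eIF3 subunits Eif3f and Eif3k, the eEF1B subunits Eef1b2 and Eef1g, and Eif4h, which stimulates the helicase eIF4A.

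For 7 of these 9 genes RefSeq promoters were at hand, and they are shown because their genes were called in the same comparison. Of the 63 members 47 matched the RefSeq promoter table (build GRCm38.p6) with 61 start sites, and Eif4e3 and Eef1g are among those without an entry. Each line runs 5′ to 3′ from 75 bases before the annotated start to 25 bases after it on the gene's strand. Capitals mark CACGTG (the E-box), TGACG (the core of the cAMP response element) and CCGGAAGT (an ETS site), searched on both strands. The motifs can share bases where they meet, but none contains another. Of the 3 start sites listed for Eif4e2 the most upstream is shown. Over the full windows of 300 bases, CACGTG was in 14 of the 61 member promoters (23%) and in 7.15% of all 32851 in the table, TGACG in 28 (45.9%) and 20.8%, and CCGGAAGT in 10 (16.4%) and 3.89%. The 4 genes higher after learning include Eif4ebp2 (chr10:61452645-61452744, minus strand), Eif4e2 (chr1:87213836-87213935, plus strand) and Eif4g1 (chr16:20672652-20672751, plus strand).
Eif4ebp2: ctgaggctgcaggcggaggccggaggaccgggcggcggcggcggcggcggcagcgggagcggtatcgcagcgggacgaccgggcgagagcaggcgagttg
Eif4e2: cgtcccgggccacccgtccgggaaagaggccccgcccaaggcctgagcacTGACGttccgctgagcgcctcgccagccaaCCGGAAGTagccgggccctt
Eif4g1: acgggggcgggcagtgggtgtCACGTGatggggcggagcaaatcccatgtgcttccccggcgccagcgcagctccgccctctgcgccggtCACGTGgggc

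Those lower after learning include Eif3f (chr7:108934340-108934439, plus strand), Eif3k (chr7:28981864-28981963, minus strand), Eef1b2 (chr1:63176756-63176855, plus strand) and Eif4h (chr5:134639385-134639484, minus strand).
Eif3f: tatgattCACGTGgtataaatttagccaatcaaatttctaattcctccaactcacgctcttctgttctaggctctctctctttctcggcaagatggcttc
Eif3k: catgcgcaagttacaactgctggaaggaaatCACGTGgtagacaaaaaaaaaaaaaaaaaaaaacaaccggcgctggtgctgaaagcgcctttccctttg
Eef1b2: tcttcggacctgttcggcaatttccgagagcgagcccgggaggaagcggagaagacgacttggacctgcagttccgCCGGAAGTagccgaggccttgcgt
Eif4h: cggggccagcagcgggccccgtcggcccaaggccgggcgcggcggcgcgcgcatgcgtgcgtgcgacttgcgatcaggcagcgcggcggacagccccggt
The E-box was in the printed stretch of genes of both directions (Eif4g1, Eif3f and Eif3k), and the same holds for CCGGAAGT (Eif4e2 and Eef1b2). The printed stretches of Eif4ebp2 and Eif4h held none of the 3 motifs. A match describes the letters only and says nothing of binding.

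Among the repressors that bind eIF4E, Eif4ebp2 had the highest positive log2 difference of the 60 factors under water, under caffeine and on average. Its levels in the HC_water mice were 63.7, 70.6, 67.5 and 61.6 CPM and in the MWM_water mice 73.1, 79.3, 73.2 and 74.4 CPM. In the HC_Caffeine mice they were 63.3, 68.5, 60.5 and 58.4 CPM and in the MWM_Caffeine mice 76.4, 74.4, 80.2 and 83.5 CPM. All 8 learning mice lay above all 8 home cage mice. The share of all genes that were apart in this way was not counted. The log2 difference was 0.33 under caffeine (SE 0.06, adjusted p = 0.0083 in edgeR) and 0.19 under water (SE 0.06, adjusted p = 0.193), and the average of both was 0.26 (adjusted p = 0.0016). The responses under caffeine and water differed by 0.14 (95% CI -0.04 to 0.32, unadjusted p = 0.112 in edgeR), so a larger response under caffeine was not shown.

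The other members of that group went uncalled. Eif4ebp1, the 4E-binding protein most studied outside the brain, had 44 to 87 reads per mouse and a log2 difference of 0.01 under water and -0.32 under caffeine (adjusted p = 0.294 in edgeR), with a 95% CI of -0.67 to 0.02 that includes no change. Its log2 ratio to Eif4ebp2 was -4.95 ± 0.25 in the HC_Caffeine mice and -5.60 ± 0.14 in the MWM_Caffeine mice (n = 4 each), a difference of -0.65 with an exact two-sided permutation p of 0.0286, the smallest that 4 mice against 4 can give, and an adjusted p of 0.40 over the 28 ratio tests. Eif4ebp3 had the lowest log2 difference of all factors under water, -0.40, with a 95% CI of -1.04 to 0.25. Eif4enif1, which carries eIF4E to the nucleus, had log2 differences of 0.01 and -0.03.

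**Figure D2:**
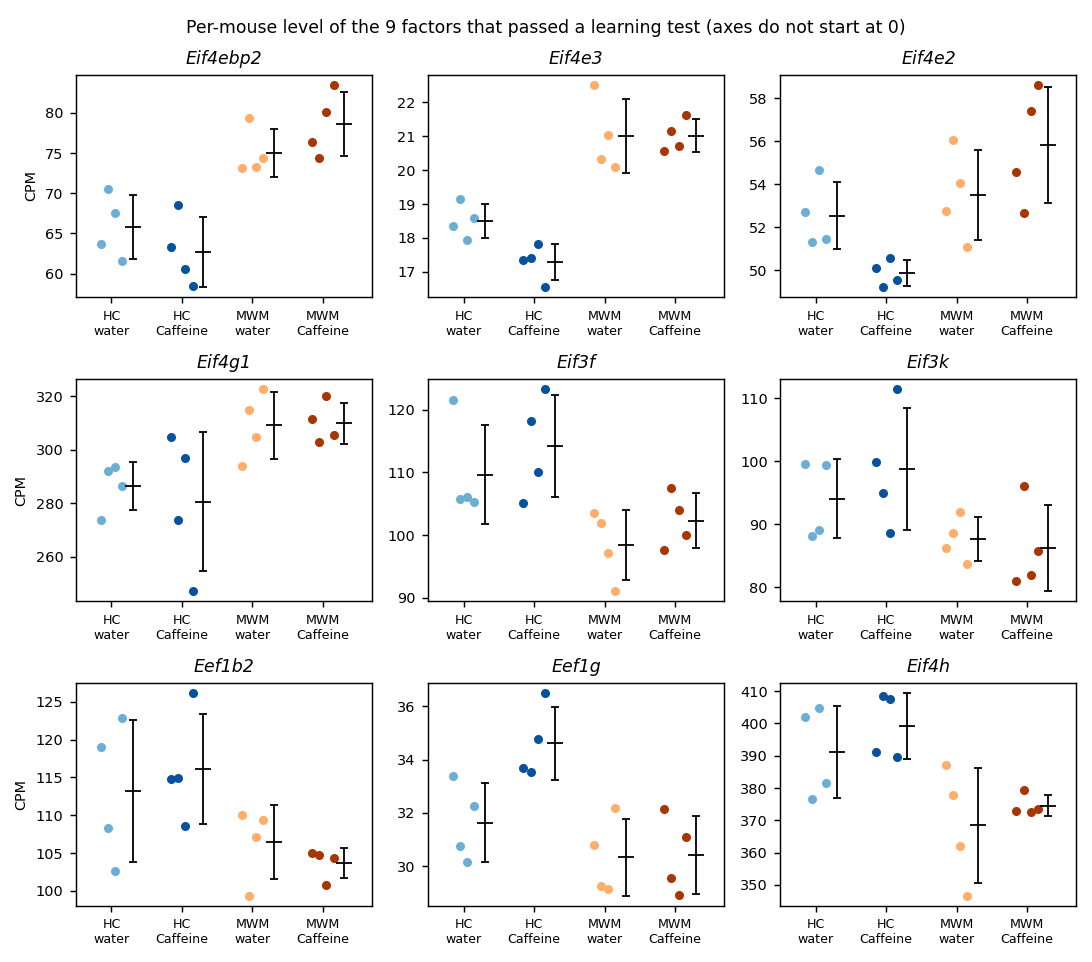
CPM of each mouse for the 9 factors called in a learning comparison, with 1 panel per gene, points for the mice of the 4 groups, and bars for the mean and SD (n = 4); the axes do not start at 0. For Eif4ebp2 and Eif4e3 all 8 learning mice lie above all 8 home cage mice, while in each of the other 7 panels the learning and home cage mice overlap.

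In the group that binds the cap, Eif4e3, an eIF4E relative that recognizes the cap in an unusual way, stood out. The HC_water mice had 18.3, 19.1, 17.95 and 18.6 CPM and the MWM_water mice 22.5, 20.3, 21.1 and 20.1 CPM. The HC_Caffeine mice had 17.3, 17.4, 17.8 and 16.5 CPM and the MWM_Caffeine mice 20.6, 21.2, 20.7 and 21.6 CPM. As for Eif4ebp2, every learning mouse lay above every home cage mouse, again with no share over all genes counted. The log2 difference was 0.28 under caffeine (SE 0.05, adjusted p = 0.012 in edgeR), 0.18 under water (SE 0.05, adjusted p = 0.168) and 0.23 on average (adjusted p = 0.0018). The 2 responses differed by 0.10 (95% CI -0.06 to 0.26). Part of its exons, 14.8% of their length, is shared on the same strand with the gene model Gm20696, and reads there were not counted for either gene.

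Eif4e2, which binds the cap but represses translation, was called under caffeine and on average. In the HC_Caffeine mice it had 50.1, 49.2, 50.6 and 49.5 CPM and in the MWM_Caffeine mice 54.6, 52.6, 57.4 and 58.6 CPM. These groups did not overlap, and their log2 difference was 0.16 (SE 0.05, adjusted p = 0.077 in edgeR). In the HC_water mice it had 52.7, 51.3, 54.6 and 51.4 CPM and in the MWM_water mice 52.8, 56.0, 54.1 and 51.1 CPM, groups that overlapped, with a log2 difference of 0.03 (adjusted p = 0.854). The responses differed by 0.14 (95% CI -0.0047 to 0.28, unadjusted p = 0.057 in edgeR), and no factor passed the test of that difference. The HC_Caffeine mice lay below all HC_water mice for this gene as for Eif4e3, with log2 differences of -0.08 and -0.10 that did not pass the test (adjusted p = 0.997 for both in edgeR). The call under caffeine was lost when HC_Caffeine 2, 9 or 17 or MWM_Caffeine 22, 30 or 40 was left out, with log2 differences of 0.15 to 0.19, and with the length and GC trend removed (0.13, adjusted p = 0.166 in edgeR).

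The scaffold Eif4g1, which joins eIF4E, eIF4A and eIF3, was called on average, with a log2 difference of 0.13 (SE 0.04, adjusted p = 0.065 in edgeR), and the call was lost without HC_Caffeine 9, MWM_water 33 or 38 or MWM_Caffeine 30 (0.12 to 0.13). Its HC_water mice had 274, 292, 293 and 286 CPM, the HC_Caffeine mice 305, 274, 297 and 247 CPM, the MWM_water mice 294, 315, 305 and 323 CPM and the MWM_Caffeine mice 311, 303, 320 and 306 CPM. Under water the groups were separated by less than 1 CPM, and under caffeine they overlapped. Its paralog Eif4g3 had log2 differences of 0.01 and 0.05, the relative Eif4g2 0.10 and 0.05, and Eif4e itself 0.01 and -0.03, with 63.1 to 71.9 CPM over all 16 mice. In this group 6 of 6 tested genes had a positive log2 difference under water and 5 of 6 under caffeine, beside 48.5% and 47.1% of all genes. Eif4e3 apart, these genes have 5000 bases of exon or more. Of all genes that long, 37% were negative under water and 36.6% under caffeine. With the length and GC trend removed, Eif4e (-0.01), Eif4e2 (-0.0085) and Eif4g3 (-0.04) were negative under water. Under caffeine Eif4e (-0.08), Eif4g2 (-0.02) and Eif4g3 (-0.0077) were negative, and the others stayed positive. The log2 ratio of Eif4g1 to Eif4g3 was 0.23 ± 0.03 in the HC_water and 0.33 ± 0.02 in the MWM_water mice (n = 4 each, exact two-sided permutation p = 0.0286, adjusted p = 0.40 over the 28 ratio tests).

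**Figure D3:**
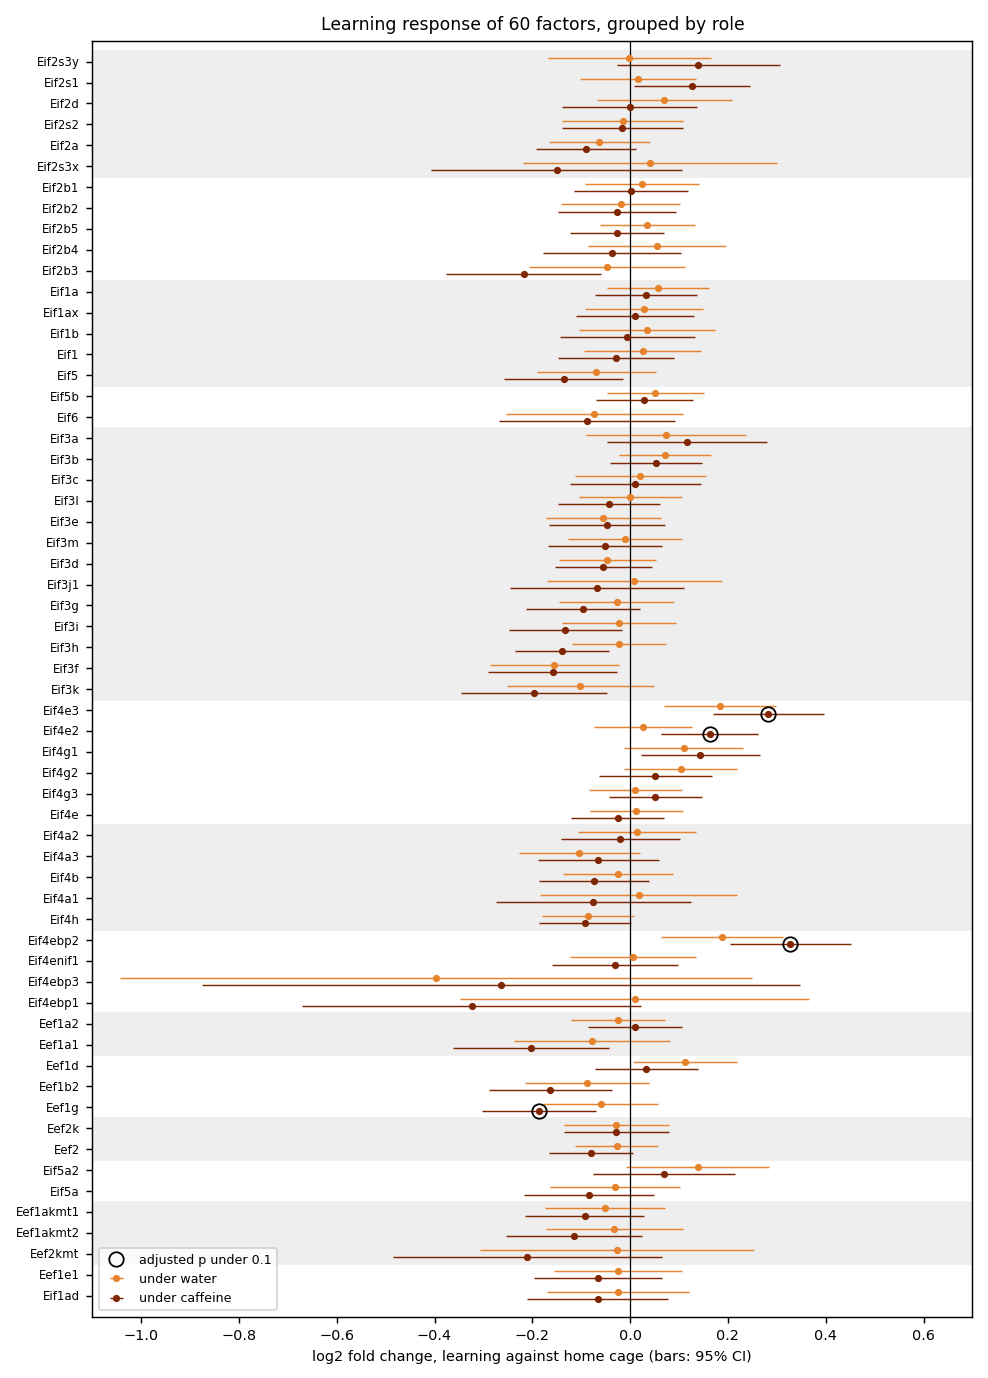
Log2 fold change of the 60 tested factors between learning and home cage mice under water (orange) and caffeine (brown), with 95% confidence intervals from edgeR, rows grouped by role with shading, and open circles for an adjusted p under 0.1. The 4 circled values are all under caffeine, and the intervals of both treatments overlap for each factor.

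Of the eIF3 subunits 2 of 13 were called on average, both lower, beside 6.71% of all genes called lower, and none in either treatment alone. Eif3f, a subunit with a deubiquitinase-like fold, had 122, 106, 106 and 105 CPM in the HC_water and 103, 102, 97.2 and 91.0 CPM in the MWM_water mice. It had 105, 118, 110 and 123 CPM in the HC_Caffeine and 97.6, 107, 104 and 100.1 CPM in the MWM_Caffeine mice. HC_water 6 stood above the other 3 mice of its group, and the groups were apart under water and overlapped under caffeine. The log2 difference was -0.16 under either treatment and on average (SE 0.04, adjusted p = 0.038 in edgeR).

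Eif3k, a small subunit outside the conserved core, had a log2 difference of -0.15 on average (SE 0.05, adjusted p = 0.075 in edgeR). Its levels were 99.6, 88.1, 89.1 and 99.3 CPM in the HC_water, 99.9, 95, 88.7 and 111 CPM in the HC_Caffeine, 86.2, 88.6, 91.9 and 83.7 CPM in the MWM_water and 81.1, 96.0, 81.9 and 85.8 CPM in the MWM_Caffeine mice. The groups overlapped under both treatments. Without HC_Caffeine 17, its highest library, the average became -0.11 and the call was lost, as it was without 9 of the other 15 libraries in turn. Of the 13 subunits 10 had a negative log2 difference under caffeine and 8 under water, and Eif3h came closest to a call under caffeine with -0.14 (adjusted p = 0.112), while the subunits Eif3a, Eif3b and Eif3c had positive values from 0.01 to 0.12 under both treatments.

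The helicase group showed 1 call, lower on average, beside 6.71% of all genes called lower. Eif4h had 402, 376, 405 and 382 CPM in the HC_water, 391, 409, 407 and 390 CPM in the HC_Caffeine, 387, 378, 362 and 347 CPM in the MWM_water and 373, 379, 372 and 374 CPM in the MWM_Caffeine mice. The groups overlapped under water and did not under caffeine. The average log2 difference was -0.09 (SE 0.03, adjusted p = 0.090 in edgeR), and with 1 library left out in turn it was called only without HC_Caffeine 17 or MWM_water 24. The neuronal helicase Eif4a2 had log2 differences of 0.01 and -0.02, Eif4a1 0.02 and -0.07, the exon junction helicase Eif4a3 -0.10 and -0.07, and the cofactor Eif4b -0.02 and -0.07, none of which passed the test. The log2 ratio of Eif4a1 to Eif4a2 ranged from -4.22 to -3.69 over the 16 mice, with 28.4% of the windows of Eif4a1 shared.

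Of the elongation factors, 2 were called on average, both lower and both in eEF1B, beside 6.71% of all genes called lower. With the length and GC trend removed neither was called on average (adjusted p = 0.179 for Eef1g and 0.145 for Eef1b2 in edgeR). Eef1g had 33.4, 30.7, 30.1 and 32.3 CPM in the HC_water and 30.8, 29.2, 29.1 and 32.2 CPM in the MWM_water mice, groups that overlapped. It had 33.7, 33.5, 34.8 and 36.5 CPM in the HC_Caffeine and 32.1, 29.6, 28.9 and 31.1 CPM in the MWM_Caffeine mice, groups that did not. The log2 difference was -0.19 under caffeine (SE 0.06, adjusted p = 0.081 in edgeR), -0.06 under water (adjusted p = 0.697) and -0.12 on average (adjusted p = 0.061). Its HC_Caffeine mice also lay above all HC_water mice, with a log2 difference of 0.13 (adjusted p = 0.997, unadjusted p = 0.031), the smallest p of any factor for caffeine in the home cage. Over the 16 fits that leave out 1 library, its log2 difference under caffeine ran from -0.20 to -0.16 and was called in 2, and the average was called in 10. With the length and GC trend removed the call under caffeine was lost (-0.14, adjusted p = 0.184 in edgeR). With 44.2% of its windows shared with copies such as Gm4366, its level rests on the remaining windows.

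Eef1b2, another subunit of eEF1B, had 119, 108, 103 and 123 CPM in the HC_water, 115, 115, 109 and 126 CPM in the HC_Caffeine, 110.0, 99.4, 107 and 109 CPM in the MWM_water and 105, 105, 101 and 104 CPM in the MWM_Caffeine mice. The groups overlapped under water and were apart under caffeine. The average log2 difference was -0.13 (SE 0.04, adjusted p = 0.075 in edgeR), called in 6 of the 16 fits that leave out 1 library. The third subunit, Eef1d, had positive values of 0.11 under water and 0.03 under caffeine and was not called.

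eEF1A and eEF2 had small differences that did not pass the test. Eef1a1 had a log2 difference of -0.08 under water and -0.20 under caffeine (adjusted p = 0.159 in edgeR), and Eef1a2 -0.03 and 0.01. Their log2 ratio, Eef1a1 to Eef1a2, was -0.27 ± 0.13 in the HC_Caffeine and -0.49 ± 0.14 in the MWM_Caffeine mice (n = 4 each, exact two-sided permutation p = 0.0857). Eef2 had -0.03 and -0.08, with 95% CIs of -0.11 to 0.06 and -0.17 to 0.01, and its kinase Eef2k, which stops elongation by phosphorylating eEF2, had -0.03 under both treatments. Eif5a had -0.03 and -0.08 and its paralog Eif5a2 0.14 and 0.07.

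With TMM scaling, the factors that deliver the initiator tRNA and choose the start codon held no call. With the length and GC trend removed, Eif5 (-0.19), Eif2b3 (-0.25) and Eif2a (-0.15) were called lower under caffeine. On average these were called lower too in that fit, and Eif1b was called higher (0.15). The values that follow are with TMM scaling. In the eIF2 group, the log2 differences under caffeine ran from -0.15 for Eif2s3x to 0.14 for Eif2s3y, and the alpha subunit Eif2s1, the target of the stress kinases, had 0.02 under water and 0.13 under caffeine (adjusted p = 0.231 in edgeR). In eIF2B, Eif2b3 had -0.22 under caffeine (adjusted p = 0.134). In the start codon group Eif5, which triggers GTP hydrolysis by eIF2, had -0.07 and -0.14 (adjusted p = 0.213), and Eif1, Eif1b, Eif1a and Eif1ax stayed between -0.03 and 0.06. Eif5b, which joins the large subunit, had 0.05 and 0.03, and Eif6, which keeps the subunits apart, -0.07 and -0.09. The methyltransferases Eef1akmt1, Eef1akmt2 and Eef2kmt had negative values from -0.21 to -0.03, and so had Eef1e1, a protein of the tRNA synthetase complex, and Eif1ad, an eIF1A-like protein, from -0.07 to -0.03, none of which passed the test.

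Genes that carry a terminal oligopyrimidine tract at the 5′ end of the mRNA, through which mTORC1 controls their translation, include 9 of the factors: Eef1a1, Eef1a2, Eef1b2, Eef1d, Eef1g, Eef2, Eif3e, Eif3f and Eif3h. On average over both learning responses 8 of the 9 had a negative log2 difference, with a median of -0.08 beside -0.01 for all genes, and 3 were called lower (Eef1b2, Eef1g and Eif3f), beside 6.71% of all genes called lower. The exonic length of 6 of the 9 is under 3000 bases. With each library's trend with length and GC content removed, 7 of the 9 were negative with a median of -0.09. Then 2 of the 9 were called lower (Eif3e and Eif3f), beside 936 of all 17830 genes.

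Exonic length moved with the learning response across the factors. Of the 25 factors with less than 3000 bases of exon, 20 had a negative average log2 difference, with a median of -0.07, and of the 22 with 5000 bases or more, 11 did, with a median of 0.01. The same was measured over all genes, with 70.5% of 6303 short genes and 36.9% of 6670 long genes negative. The trend of log2 CPM with log2 exonic length had slopes from -0.01 to 0.07 in the learning libraries and from -0.10 to 0.04 in the home cage libraries, lowest in HC_Caffeine 17, which also had the highest share of mitochondrial reads, 4.49% against at most 3.89% in the others. The part of this trend in the learning response was not tested beyond an alternative. When each library's trend with length and GC content was removed, Eif4ebp2 (0.24, adjusted p = 0.0015 in edgeR), Eif4e3 (0.27, adjusted p = 0.00027), Eif3f (-0.13, adjusted p = 0.049) and Eif4h (-0.09, adjusted p = 0.055) kept their calls on average. Eif4e2 (0.06), Eif4g1 (0.10), Eif3k (-0.11), Eef1b2 (-0.09) and Eef1g (-0.09) lost theirs, and Eif1b (0.15), Eif3b (0.10), Eif5 (-0.15), Eif2a (-0.12), Eif2b3 (-0.16) and Eif3e (-0.12) gained one. Of the 10 factors called then, 4 were among the 9 called with TMM scaling alone. Of all 17830 genes, 1246 were called higher and 936 lower on average in that fit. Under caffeine the calls gained were Eif5 (-0.19, adjusted p = 0.047), Eif2b3 (-0.25, adjusted p = 0.092) and Eif2a (-0.15, adjusted p = 0.099).

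**Figure D4:**
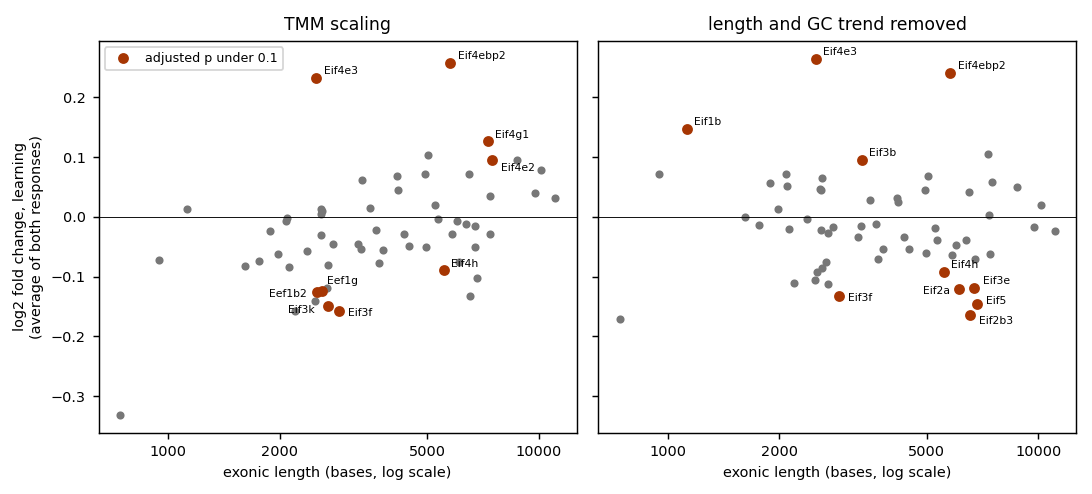
Average log2 fold change of the 2 learning responses against exonic length in bases (log axis) for the 60 tested factors, with TMM scaling on the left and with each library's trend with length and GC content removed on the right, and colored, named points for an adjusted p under 0.1 in edgeR. With TMM scaling 4 of the 5 factors called lower are under 3000 bases long; with the trend removed 5 of the 6 called lower are 5000 bases or longer, and Eif4ebp2 and Eif4e3 are highest in both panels.

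Caffeine itself was not followed by a called difference in any factor. In the home cage 0 of 60 were called with edgeR, beside 0% of all genes, 1 had an unadjusted p under 0.05 (Eef1g), beside 3.57% of all genes, and DESeq2 called 0. In the learning mice 0 of 60 were called, beside 0% of all genes, 0 had an unadjusted p under 0.05, beside 3.93%, and DESeq2 called 0. The log2 difference was positive in 36 of 60 factors in the home cage, beside 48.7% of all genes, and negative in 39 of 60 in the learning mice, beside 51.9%. The groups did not overlap in the home cage for 3 factors (Eef1g higher, Eif4e2 and Eif4e3 lower), beside 1.99% of all genes, and for none in the learning mice, beside 2.6%. The largest values in the home cage were 0.27 for Eif4ebp1, a gene with few reads, and -0.10 for Eif4e3, and in the learning mice 0.21 for Eif4ebp3, also with few reads, and -0.14 for Eif2s3x. Over both conditions 0 of 60 were called, beside 0% of all genes, and 2 had an unadjusted p under 0.05, beside 4.07%. Of these the kinase Eef2k had -0.10 (95% CI -0.17 to -0.02, unadjusted p = 0.015, adjusted p = 0.986) and Eif3e -0.09 (unadjusted p = 0.033, adjusted p = 0.986). Eef2k was at 46.6 to 50.0 CPM in the HC_Caffeine and 49.5 to 53.5 CPM in the HC_water mice, and at 44.5 to 51.4 and 49.2 to 52.8 CPM in the corresponding learning mice, so that the groups overlapped in both conditions.

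**Figure D5:**
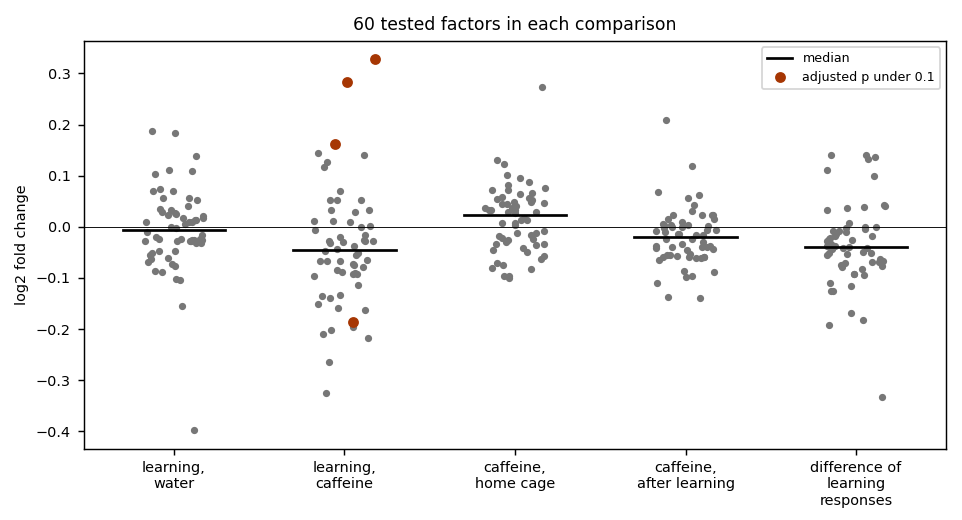
Log2 fold change of the 60 tested factors in 5 comparisons, with 1 point per gene (spread sideways at random), black lines for the median and colored points for an adjusted p under 0.1 in edgeR. Only the learning comparison under caffeine holds called factors (4), and the medians lie between -0.05 and 0.02.

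The learning responses under caffeine and under water were compared in the same model. No factor differed, with 0 of 60 called by edgeR beside 0% of all genes, 0 at an unadjusted p under 0.05 beside 3.63%, and 0 by DESeq2. In 48 of 60 factors the difference of the responses, caffeine minus water, was negative, beside 49.2% of all genes, with medians of -0.04 and 0.00. The factors were measured in the same libraries, and this count of signs was not tested. The largest differences were -0.33 for Eif4ebp1 (95% CI -0.83 to 0.16) and 0.14 for Eif2s3y, Eif4ebp2 and Eif4e2. The 2 learning responses share no mice, while the learning and the caffeine comparisons share groups with each other.

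Among 58 tested genes that regulate these factors but are no members of the family, the learning comparison called 0 under water, 3 under caffeine (all higher, 5.17% beside 5.28% of all genes) and 11 on average (10 higher and 1 lower, 19.0% beside 14.5%). Of the 15 genes of mTORC1 and MNK signaling to eIF4E, 5 were called higher on average, beside 7.81% of all genes: Mknk2, which phosphorylates eIF4E (0.22, adjusted p = 0.0077 in edgeR), the kinase Mtor itself (0.15, adjusted p = 0.030), its target Rps6kb1, the binder of oligopyrimidine mRNAs Larp1, and Ddit4, an inhibitor of mTORC1. Of the 7 genes listed as neuronal translation repressors, Cpeb1 was higher (0.18, adjusted p = 0.0096). Of the 7 genes of the eIF2 alpha kinases and phosphatase, Ppp1r15b, which directs the phosphatase to eIF2 alpha (0.20, adjusted p = 0.0098), and the adaptor Nck1 were higher. Of the other lists, Sesn2 among 6 ATF4 genes and the recycling factor Abce1 among 9 genes of termination, recycling and reinitiation were higher, and the reinitiation factor Denr in the same list was lower. None was called among 5 genes of the poly(A)-binding protein and 9 of hypusine and diphthamide synthesis. Caffeine called none of the 58 in either condition. These 58 genes were not put through the alternatives given below, among them the removal of the length and GC trend. Of all genes with 5000 bases of exon or more, 901 of 6670 were called higher on average. The part of exonic length in the calls of the 58 genes was not tested.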

How the data were processed

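The authors made mRNA libraries, sequenced single-end reads of 50 bases, mapped them to the mouse genome mm10, kept uniquely aligned reads and counted them per Ensembl gene with HTSeq in union mode. The deposited values are raw counts, 1 column per mouse, without normalization; the processing notes in the labels name HTSeq 0.6.1p1, STAR and bcl2fastq 2.17.1.14. Whether counting used the strand is not given in the sources used here. Depth was 23078094 to 49949281 counts per library. Library pairs within each group differed by more than sampling noise, so all 16 were counted as separate samples; p-values measure the spread between these mice. No column with per-sample values was left unused.

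Counts were analysed in R 4.3.3 with edgeR 4.0.16 (TMM, filterByExpr on the 4 groups, quasi-likelihood test, Benjamini-Hochberg over 17830 genes, threshold 0.1). Positions, lengths and overlaps come from GENCODE M21 on the same build, in which 81 of the 35328 genes had no match. Members, roles, pathway genes and markers were chosen with earlier results of these data known. Named were the factors called in any comparison, the 3 highest and 3 lowest log2 values of each comparison, the highest and lowest level per kilobase of each role, 7 paralog pairs, factors not tested and factors that overlap other genes; Fos and cell type markers were checks, and other factors, named to complete a role, were chosen after their values were seen. Paralog ratios were compared by exact permutation of 4 mice against 4 (7 pairs, 4 comparisons). Alternatives were DESeq2 1.42.0 (Wald test, and its size factors in edgeR), only the 2 groups compared, all genes with 1 count or more in total, or 10 or more in each library, robust empirical Bayes, a threshold of 0.05, removal of each library's length and GC trend, a pseudocount of 0.5 CPM in ratios, and leaving out each library. The tests were also run on simulated data. The changes put into MWM_Caffeine there were larger than the differences called under caffeine, so those runs do not cover differences of the smaller size.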

Additional observations from a re-analysis of the deposited data

Results flagged for a closer look

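In groups of 4 mice, values are given here where the distance of the highest or lowest mouse to the next, relative to the group's range, exceeded Dixon's 95% critical value. Over the 60 tested factors 14 of 240 groups met this (5.83%), and chance alone gives about 1 in 20. Among the genes called and the paralog pairs, HC_water 6 had Eif3f at 121.55 CPM with the other 3 mice at 105 to 106 CPM, MWM_Caffeine 30 had Eef1b2 at 100.74 CPM with the others at 104 to 105 CPM, and MWM_Caffeine 27 had Eif4h at 379.37 CPM with the others at 372 to 374 CPM. HC_Caffeine 17 had Eif1 at 132.31 CPM with the others at 113 to 115 CPM, MWM_Caffeine 27 had Eif2s3y at 61.009 CPM with the others at 71.9 to 73.7 CPM, and MWM_water 24 had Eif5a2 at 61.759 CPM with the others at 64.5 to 64.7 CPM. The log2 ratio of Eif1 to Eif1b was 0.085973 in HC_water 20 and 0.36 to 0.41 in the other HC_water mice. Without HC_water 6 the log2 difference of Eif3f under water was -0.09 in place of -0.16, and its average over both learning responses was still called.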

How the results depend on the processing

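No paired analysis was possible because no replicate number occurs in more than 1 group. Under water, DESeq2 and the removal of the length and GC trend each called 1 factor higher (Eif4e3) where edgeR called 0. Of all 17830 genes, that removal called 140 higher and 70 lower under water. Under caffeine the 4 calls became 2 (Eif4ebp2 and Eif4e3) in the fit of the 2 groups compared, with a filter of at least 1 count, and at an adjusted p under 0.05; with the length and GC trend removed they were 5, of which Eif4ebp2 and Eif4e3 (higher) were among the 4 and Eif5, Eif2b3 and Eif2a (lower) were not; on average the 9 calls became 4 with that filter and 3 at that threshold. The log2 difference of Eif4e2 under water turned from 0.03 to -0.0085 with the length and GC trend removed. Apart from those with that trend removed, the counts of calls in this section stand without the share of all genes called in the same fit. They are no result about the factors. With 1 library left out in turn, the calls ran from 2 to 5 under caffeine and from 3 to 10 on average and were 0 in the other comparisons; 3 calls on average were left without MWM_water 33 or MWM_Caffeine 30, 5 without HC_water 6 or 20, HC_Caffeine 9 or 17, MWM_water 36 or MWM_Caffeine 40, and 2 under caffeine without HC_Caffeine 2, 9 or 17 or without MWM_Caffeine 22, 30 or 40. Of the 16 such fits, Eif4ebp2 and Eif4e3 kept their calls in 16 (caffeine and average) and Eif3f in 16 (average), while Eif4g1 kept its average call in 12, Eef1g in 10, Eif4e2 in 8, Eef1b2 and Eif3k in 6 and Eif4h in 2; under caffeine Eif4e2 kept it in 10 and Eef1g in 2. The median log2 difference of the factors then ran from -0.0084 to 0.024 under water, from -0.054 to -0.023 under caffeine, from -0.037 to -0.00060 on average, from -0.0010 to 0.032 for caffeine in the home cage, from -0.026 to -0.0077 for caffeine after learning, from -0.051 to -0.020 for the difference of the learning responses and from -0.0063 to 0.0076 for the average caffeine effect; the highest values under water, on average and in the home cage were without HC_water 6. The ratio tests gave 0 of 28 below the threshold. The smallest p of the exact permutation test was 0.0286, so no ratio could pass by itself after adjustment over 28 tests. This count therefore does not decide whether a ratio differed. Intervals and p-values cover these 16 libraries only, mRNA levels are no measure of protein or of translation, and factors with few reads (Eif4ebp1, Eif4ebp3) have wide intervals. The causes of these changes were not tested.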
